A study of Mus musculus with 15 samples.

Results

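The cytosolic ribosome reads messenger RNA in every cell, and its protein shell is built from a large and a small subunit. Genes named Rpl or Rplp encode proteins of the large subunit, and genes named Rps, with Rpsa, encode proteins of the small subunit. Of 37583 counted genes, 79 protein-coding genes had such a symbol, followed by a number or in the names Rplp0, Rplp1, Rplp2 and Rpsa. Genes with the ending -ps, the Rps6k kinase genes and Rps4l were left out. A raw count of at least 10 in at least 2 libraries was then required. The 76 genes that met both conditions were 45 of the large and 31 of the small subunit. They are called the ribosomal protein genes here, although Rps3a1, Fau and Rack1, which also encode ribosomal proteins, have symbols outside this pattern, and Rpl24 was not analysed here.

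Ribosome production is costly, and cells keep the many ribosomal protein messages in step. Most of these messages begin with a run of pyrimidines, the terminal oligopyrimidine (TOP) motif, through which the kinase complex mTORC1 and the binding protein LARP1 govern their translation. MYC raises and the histone deacetylase SIRT6 can restrain transcription of ribosome genes, and loss of SIRT6 has been linked to more ribosomal protein expression in tumour models of other tissues.

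The RNA came from skin tumour cells of C57BL/6 mice. Tumours had been raised over more than 24 weeks with DMBA, a mutagen, and TPA, a promoter of tumour growth. The sort used integrin alpha 6 (a6, a receptor of basal keratinocytes encoded by Itga6) and CD34, a marker of hair follicle bulge cells, in flow cytometry and gave 3 populations. They are called CD34-positive (all of them a6-high), a6-high CD34-negative and a6-low (all of them CD34-negative). The KO genotype was K14-cre with SIRT6 flox/flox alleles, and K14 drives Cre in keratinocytes, so other sorted cells would keep the gene. The other genotype is labelled WT, and whether it carries floxed alleles or Cre is not given. Each population had 2 KO and 3 WT libraries, 15 in all, and a library carries the genotype and a number, here called its animal label (KO 1, KO 2, WT 1, WT 2 and WT 3).

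Between 19.8 and 28.6 M reads (M, 1e6) were counted in genes in KO libraries and 10.1 to 21.6 M in WT libraries. Sirt6 lay at 5.07 to 8.53 CPM (counts per 1e6 gene counts, scaled for composition) with the KO label and between 4.45 and 10.5 CPM with the WT label, so it does not separate the genotypes, and "libraries labelled KO" is written for that reason. The Y-linked gene Ddx3y reached 51.9 to 74.9 CPM with label KO 2 and at most 0.222 CPM in the remaining 12 libraries. Among a6-low libraries Itga6 was at 67.9, 94.1 and 174 CPM in KO 1, WT 2 and WT 3, but at 445 CPM in KO 2 and 471 CPM in WT 1, within the 263 to 576 CPM of the 10 a6-high libraries. The 7 keratinocyte markers summed to at least 37420 CPM in every library. The 10 leukocyte markers summed to 46.0 to 437 CPM in libraries labelled KO and 62.5 to 1006 CPM in WT libraries, and the 7 fibroblast markers summed to 4.33 CPM or less, with 2 of the 7 at 0 in all libraries labelled KO and 1 in all WT libraries.

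The 3 other genes with a fitting symbol were below the count minimum. Rpl3l, a paralog of Rpl3 that serves in muscle, had at most 5 reads in a library and 17 in all, in 7 libraries. Rpl39l, a paralog best known from testis, had 1 read in 1 library. Rpl10l, a testis paralog of Rpl10, had none.

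RefSeq promoters of the build GRCm38.p6 were matched for 56 of the 76 genes. In 12 of the 56 (21.4%) the annotated start base was a C with at least 4 more pyrimidines (C or T) after it, as in a TOP message, against 354 of all 15572 promoters (2.27%). Within 5 bases of the start such a run lay in 27 of 56 (48.2%), against 19.2% of all promoters. Shown are 15 bases before and 15 from the start base, read along the gene, with the pyrimidine run from the start base in capitals. These 8 genes of the 12 were chosen because their levels are described further on or because they are known TOP messages.
Rpl15 (chr14:18270972-18271001, minus strand): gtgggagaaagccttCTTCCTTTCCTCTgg
Rpl28 (chr7:4792950-4792979, plus strand): ccgcctctcgtgtctCTCTTTCCgtctccg
Rpl35 (chr2:39005117-39005146, minus strand): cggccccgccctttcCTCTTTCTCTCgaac
Rplp2 (chr7:141447636-141447665, plus strand): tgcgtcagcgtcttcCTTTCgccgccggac
Rps6 (chr4:86857353-86857382, minus strand): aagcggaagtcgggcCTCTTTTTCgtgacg
Rps15a (chr7:118116133-118116162, minus strand): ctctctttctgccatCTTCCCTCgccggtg
Rps18 (chr17:33955651-33955680, minus strand): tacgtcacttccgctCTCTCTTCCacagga
Rps27 (chr3:90213634-90213663, minus strand): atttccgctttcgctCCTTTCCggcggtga

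The runs were 13 bases long in Rpl15, 11 in Rpl35 and 5 in Rplp2. The other 4 of the 12 were Rpl14, Rpl38, Rps10 and Rps21. For comparison, 2 genes without a run at the annotated start base are set beside them, and neither has one within 5 bases of it.
Rpl11 (chr4:136053379-136053408, minus strand): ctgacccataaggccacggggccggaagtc
Rps3 (chr7:99483695-99483724, minus strand): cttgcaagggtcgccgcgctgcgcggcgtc

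A set of 7 short motifs was searched on both strands in 300 bases around each start, from 250 before it. CGGAAG, the core that ETS factors bind, was in 39 of the 56 promoters (69.6%), against 23.0% of all promoters. It also lies in the windows above, before the start of Rps6 and after that of Rpl11, and on the opposite strand (as cttccg) before the start of Rps18. TGACGTCA, bound by CREB factors, was in 8.93% against 2.51%, AAGATGGC, bound by YY1, in 7.14% against 3.45%, and GGGCGG, bound by SP1, in 60.7% against 50.1%. CACGTG, the E-box that MYC binds, was in 8.93% of the 56 against 8.4% of all, TATAAA in 8.93% against 12.03%, and CCAAT in 32.1% against 38.5%. A match of letters is a description of the window and not a measured binding site.

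Together the 76 genes took 3.53% to 4.77% of the gene counts of a library. Libraries labelled KO held 3.80% and 4.10% in CD34-positive, 3.53% and 4.51% in a6-high CD34-negative and 3.72% and 4.06% in a6-low cells. WT libraries held 4.47%, 3.84% and 4.05% in the first, 4.51%, 4.16% and 3.68% in the second and 4.23%, 4.77% and 4.31% in the third population. The ranges of the genotypes overlapped in both a6-high populations and did not overlap in a6-low cells. With library sizes scaled for composition they did not overlap in CD34-positive cells either. The shares there were then 3.47% and 3.86% with the KO label and 4.61%, 4.12% and 4.41% in WT libraries. The mean share of gene counts was 3.95% ± 0.346 (SD, n = 6) in libraries labelled KO and 4.22% ± 0.339 (SD, n = 9) in WT libraries. That difference was smaller than either SD. Here n counts libraries, which come from 2 KO and 3 WT animal labels. Scaled for composition, the shares ran from 3.25% to 3.91% with the KO label and from 3.86% to 5.33% in WT libraries. These scaled ranges overlapped only between 3.86% and 3.91%. By population the mean share of gene counts was 4.05% ± 0.265 in CD34-positive, 4.08% ± 0.457 in a6-high CD34-negative and 4.22% ± 0.383 in a6-low cells (SD, n = 5 each). Differences between populations were smaller than the SD. A share in bulk RNA cannot tell fewer cells of a type from less RNA per cell. Reads that aligned to several places, 29.9% to 33.7% of records in KO and 30.7% to 38.0% in WT libraries, were not counted for genes.

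**Figure D1:**
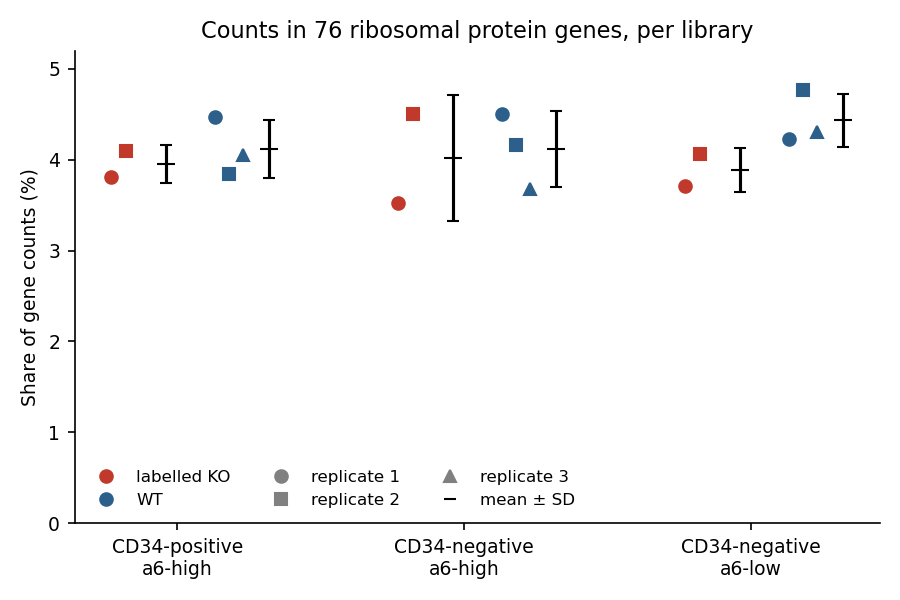
Share of gene counts (percent, y axis) in the 76 ribosomal protein genes in each library, by population, with libraries labelled KO in red left of WT libraries in blue and the mean ± SD of each group as a black bar. Shares run from 3.53% to 4.77%, and in the a6-low population both libraries labelled KO lie below all 3 WT libraries.

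The genes spanned a wide range of levels. Set per length of exon sequence, high levels were those of the stalk gene Rplp1 (1177 ± 171 CPM per kilobase, SD, n = 15 here and in the next values), Rpl32 (1112 ± 197), the stalk gene Rplp0 (1066 ± 206) and Rpl4 (1063 ± 156). Neighbours among these 4 differed by less than their SD. The lowest were Rpl23a (19.2 ± 3.28 CPM per kilobase), Rps15a (44.1 ± 8.62), Rps24 (51.5 ± 8.95), Rpl35a (52.7 ± 10.7) and Rpl27a (54.2 ± 7.05). Rpl23a stood below the other 4 by more than their SD, and neighbours among these differed by less than theirs. The median over the 76 genes was 234 CPM per kilobase, 215 for the large and 289 for the small subunit. Since the proteins are needed in nearly equal numbers, the counts per length are no measure of protein. Near-identical copies of a gene leave its count uncertain. Of the 50-base windows of a gene's longest coding transcript, a median of 47.4% also occur in other annotated genes, with 95.1% in Rpl35, 93.8% in Rpl5, 86.7% in Rps18 and 85.7% in Rpl23a. In 34 of the 76 genes at least 50% of windows are shared, and their counts are uncertain. The median level was 226 CPM per kilobase in these 34 and 238 in the other 42. Whether shared windows lowered a level was not tested.

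**Figure D2:**
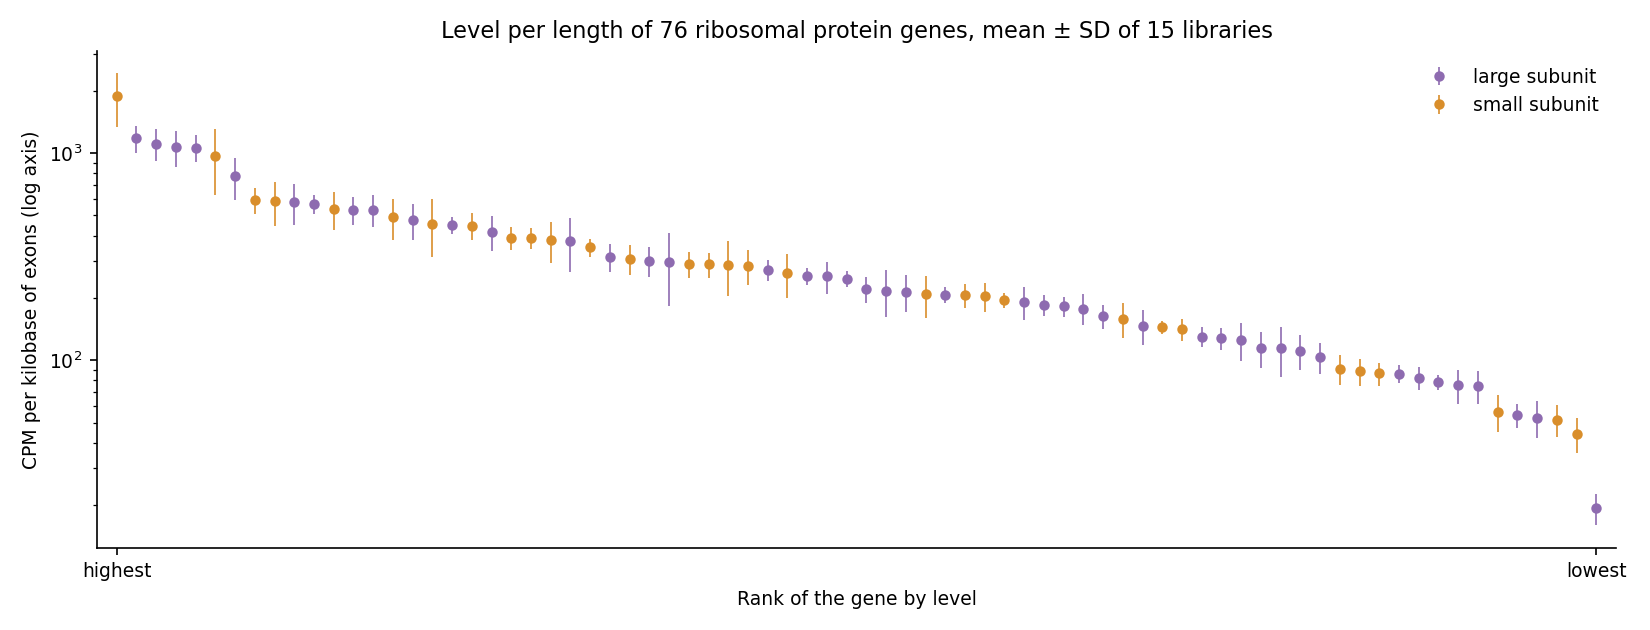
Level per kilobase of exon (CPM per kilobase, log axis) of the 76 genes in descending order along the x axis, mean ± SD of 15 libraries, coloured by subunit. Rpl23a ends the order at 19.2, and genes of both subunits are spread along it.

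From library to library the ribosomal protein genes moved little. The SD of log2(CPM + 1) over the 15 libraries had a median of 0.24 and a range of 0.11 to 0.53, against a median of 0.34 for 1813 other genes at 100 CPM or more. The steadiest were Rpsa, which encodes the laminin receptor protein of the small subunit (0.11), Rps27a, whose product is made fused to ubiquitin (0.12), Rpl30 (0.12), Rpl7 (0.13) and Rpl29 (0.13). Rpsa averaged 457 ± 34.0 CPM and Rps27a 384 ± 33.1 CPM (SD, n = 15). Among the most variable were Rpl35 (0.53), Rps15 (0.49) and Rps18 (0.44). Across libraries the median correlation between 2 of the genes was 0.53, against 0.13 between 2 of the other genes, a description of points that share libraries, depth and scaling.

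Members with a known role of their own were all measured well above the count minimum. Of the stalk proteins, which recruit translation factors, Rplp0 lay at 1174 to 1867 CPM in libraries labelled KO and 1783 to 2526 CPM in WT libraries. These ranges overlap only between 1783 and 1867 CPM, at the a6-low library of KO 1. Its partners Rplp1 and Rplp2 averaged 587 ± 85.3 and 655 ± 99.5 CPM (SD, n = 15). Rpl5 and Rpl11 form a particle with 5S RNA that can bind MDM2 when ribosome assembly fails, and averaged 447 ± 123 and 344 ± 40.3 CPM. Rps6, the target of the S6 kinases, averaged 460 ± 62.7 CPM. The X-linked genes Rps4x, Rpl10, Rpl36a and Rpl39 averaged 573 ± 58.4, 525 ± 49.9, 143 ± 14.5 and 109 ± 20.5 CPM. Rps27l, a paralog of Rps27 that p53 can induce, averaged 479 ± 115 CPM, and Rps27 itself 274 ± 66.4 CPM. Rpl3, which lines the peptidyl transferase centre, averaged 867 ± 100.4 CPM.

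The CD34-positive and the a6-high CD34-negative cells were compared first, since the series title speaks of tumour-propagating cells. No ribosomal protein gene passed (edgeR quasi-likelihood test, adjusted p under 0.05, mean of the KO and WT differences), where 1.17% of 14652 tested genes did. The genes were split, 37 higher and 39 lower in CD34-positive cells (47.2% of all tested genes were higher and 52.8% lower). The median log2 difference was -0.0018, against -0.02 over all tested genes. With an unadjusted p under 0.05, 9 genes were higher and 0 lower, against 8.11% of all tested genes higher and 7.02% lower by that measure. All 9 lie on chromosome 7, Rps13 and Rps15a among them.

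Chromosome 7 carries 14 of the 76 genes, more than any other. The split by chromosome came after the values had been seen. Rps13, which encodes a protein of the small subunit, was at 510, 355, 585, 458 and 484 CPM in the CD34-positive libraries of KO 1, KO 2, WT 1, WT 2 and WT 3, against 329, 320, 416, 366 and 370 CPM in the a6-high CD34-negative libraries of the same labels. CD34-positive was higher within every label, and the groups overlapped through KO 2. The means were 478 ± 83.7 and 360 ± 38.2 CPM (SD, n = 5 each), a log2 difference of 0.41 ± 0.15 (SE, edgeR adjusted p = 0.205). Rps15a, which starts with the run CTTCCCTC shown above, was at 318, 244, 379, 272 and 330 CPM in CD34-positive libraries in the same order, against 176, 242, 265, 267 and 188 CPM. Again each label was higher in CD34-positive cells, KO 2 by the least (log2 0.44 ± 0.16 SE, edgeR adjusted p = 0.207).

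Of the 14 genes on chromosome 7, 13 were higher in CD34-positive cells, and their median log2 difference was 0.30. Among them 10 were higher within all 5 labels, and 0 of the 62 genes elsewhere were. Over all 76 genes the count was thus 10, against 10.1% of all tested genes. The share of all chromosome 7 genes by this measure is not given here. The gene on chromosome 7 that was not higher had a log2 difference of -0.03. Of the 62 genes elsewhere, 24 were higher, and their median was -0.03, with 0 of them at an unadjusted p under 0.05. Low differences among these were those of Rps27 (log2 -0.19) and Rpl13 (-0.19), and neither passed.

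The same held for chromosome 7 at large. Its 567 genes at 10 CPM or more had a median log2 difference of 0.27, with 82.7% higher in CD34-positive cells, against -0.04 and 42.1% for 7139 genes on other chromosomes. Of all tested genes on chromosome 7, 19.2% were higher with an unadjusted p under 0.05, against 7.37% of the others. Within the labels KO 1, KO 2, WT 1, WT 2 and WT 3 the median of the 14 genes was 0.46, 0.04, 0.29, 0.29 and 0.45, and that of the 567 genes 0.38, -0.01, 0.28, 0.40 and 0.35. For the 62 ribosomal protein genes elsewhere it was -0.02, 0.03, -0.11, -0.15 and 0.09. KO 2 thus stood apart from the other 4 labels. Its 3 libraries had chromosome 7 genes 0.19 to 0.23 below their mean over all libraries on the log2 scale, in each population, while the CD34-positive libraries of the other labels lay 0.22 to 0.33 above it. Hras, the gene on chromosome 7 that DMBA commonly mutates in such tumours, was at 333, 231, 375, 425 and 352 CPM in CD34-positive libraries in the same order of labels, against 235, 226, 297, 267 and 334 CPM. It too was higher within every label and least so in KO 2 and WT 3, and it did not pass (log2 0.33 ± 0.17 SE, edgeR adjusted p = 0.393).

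**Figure D3:**
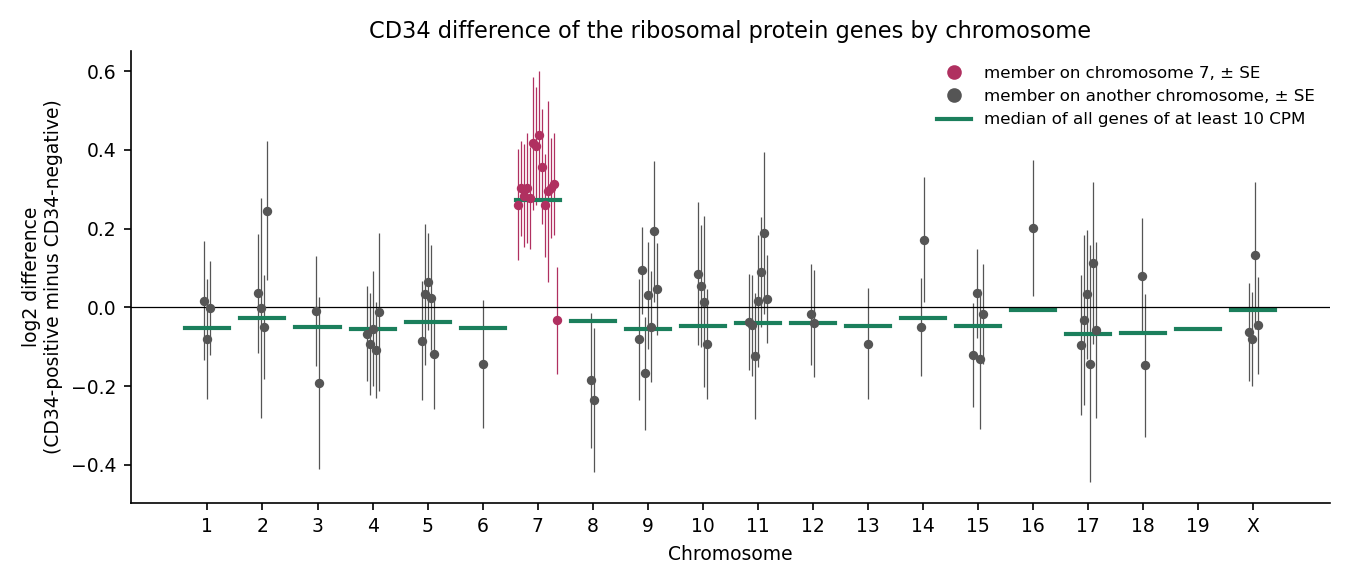
Log2 difference, CD34-positive minus a6-high CD34-negative cells, of each ribosomal protein gene (points, ± SE) by chromosome, with the median of all genes of at least 10 CPM on that chromosome as a green bar. On chromosome 7, 13 of 14 points and the green bar at 0.27 lie above 0, and elsewhere points lie on both sides.

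**Figure D4:**
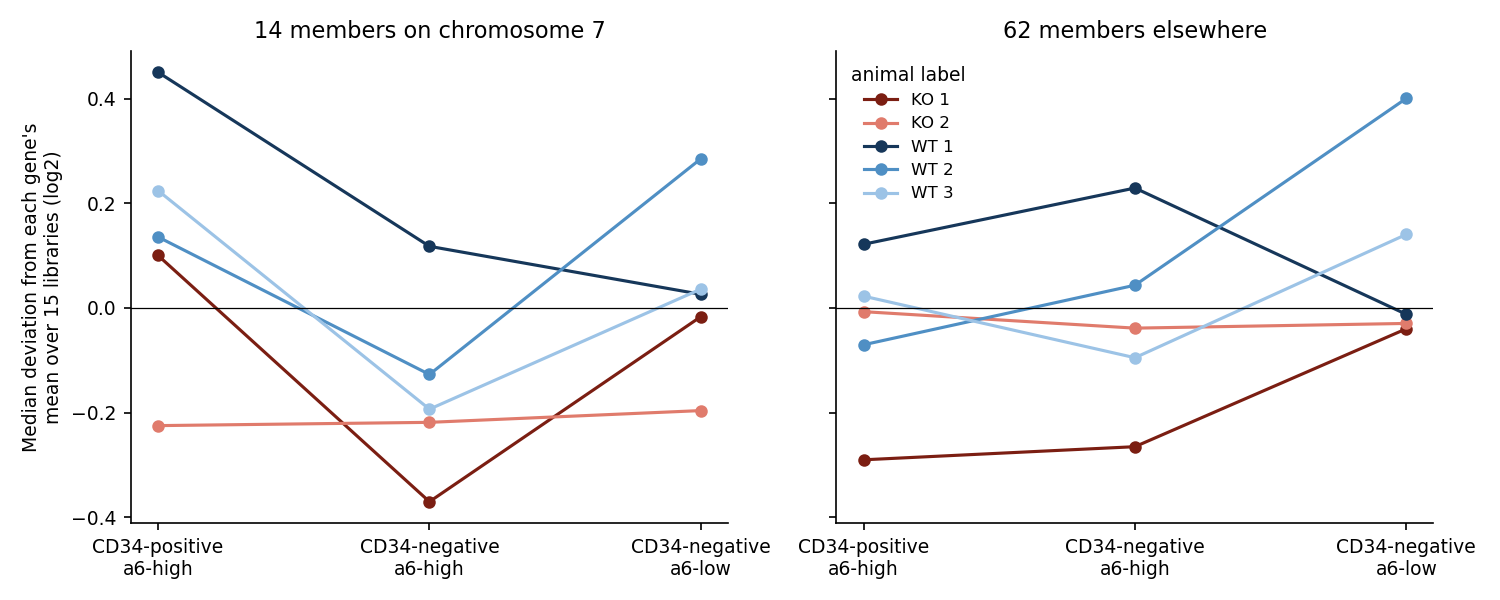
Median deviation (log2) of the ribosomal protein genes from each gene's mean over 15 libraries, for the 14 genes on chromosome 7 (left) and the 62 elsewhere (right), with a line for each animal label across the 3 populations. On the left 4 of 5 lines drop on going to a6-high CD34-negative cells and that of KO 2 stays level, and on the right no such drop is shared.

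With the animal label as a block, 5.41% of genes passed the CD34 comparison and again 0 of the 76, with a median log2 difference of 0.00. The CD34 difference was also set between genotypes. No ribosomal protein gene and no other gene passed this interaction test, and 0 of the 76 had an unadjusted p under 0.05, against 1.09% of all tested genes. In simulated counts with known changes, put into genes drawn from all tested genes, the test recovered 0% of 2-fold and 1% of 4-fold changes. It therefore cannot tell whether the genotypes share the CD34 difference. The largest values, KO difference minus WT difference, were 0.40 ± 0.28 (SE) in Rpl34 and 0.40 ± 0.36 in Rps27l, and the lowest was -0.26 ± 0.41 in Rps2.

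Genes around the ribosome were also scored in this comparison, from lists chosen with earlier results known. Of 40 ribosome biogenesis genes 25 were higher and 0 passed, with Ltv1, a small subunit assembly factor, at 129 ± 14.2 against 151 ± 17.4 CPM and the rRNA methyltransferase gene Fbl at 197 ± 58.5 against 149 ± 23.4 CPM (SD, n = 5 each). Of 34 translation factor genes 19 were higher and 0 passed, with Eif3f at 271 ± 26.0 against 225 ± 26.0 CPM. Of 18 genes of mTORC1 and TOP control 11 were higher and 0 passed, with the translation inhibitor gene Pdcd4 at 4.62 ± 1.94 against 8.93 ± 5.53 CPM. Of 11 p53 response genes 1 passed: Bax, which promotes apoptosis, rose to 242 ± 38.2 CPM in CD34-positive cells, against 148 ± 23.3 CPM (log2 0.73 ± 0.15 SE, edgeR adjusted p = 0.0424), and also lies on chromosome 7. Of 76 mitochondrial ribosomal protein genes tested 33 were higher and 0 passed. Markers of other cells also differed. All 4 endothelial markers tested were higher in CD34-positive cells, with sums over the 6 on the list of 6.47 to 51.3 CPM against 1.05 to 2.61 CPM, and among 8 leukocyte markers tested 3 were higher and Cd68 passed. With the animal label as a block Bax and Cd68 passed again, and further genes of the lists did too. Ccng1 (log2 0.74) and Rps4l (1.06), described further on, rose and Sesn1 (-0.94) fell, and among cell markers the endothelial Plvap (3.68) rose and the keratinocyte differentiation genes Krt1 (-1.14) and Krt10 (-1.22) fell (edgeR adjusted p from 0.00533 to 0.0493). The part of such cells in the ribosomal protein differences was not tested.

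The a6-high CD34-negative cells were next set against a6-low cells. No ribosomal protein gene passed the edgeR test, where 0.00683% of genes did, which is Mxd1 alone. A count of 74 of the 76 genes was lower in a6-high cells, against 52.4% of all tested genes. Their median log2 difference was -0.11, and that of all genes -0.02. The differences were small, and that furthest below 0 was -0.38 in Rps15a. Rps15a was at 176, 242, 265, 267 and 188 CPM in the a6-high libraries of KO 1, KO 2, WT 1, WT 2 and WT 3, against 294, 264, 295, 344 and 271 CPM in a6-low libraries. Each label was lower in a6-high cells, and the groups overlapped only at 264 to 267 CPM. The means were 228 ± 43.1 and 294 ± 31.5 CPM (SD, n = 5 each; log2 -0.38 ± 0.16 SE, edgeR adjusted p = 0.413), and Rps15a was the only one of the 76 with an unadjusted p under 0.05, against 6.27% of all genes lower by that measure.

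Rpl39, which encodes a small protein of the exit tunnel, averaged 98.5 ± 21.3 CPM in a6-high and 122 ± 18.1 CPM in a6-low cells (log2 -0.31), and Rpl41, whose product is among the shortest known proteins, 451 ± 121 and 546 ± 60.2 CPM (log2 -0.30). Rpl21 (0.03) and Rpl15 (-0.00) had a difference near 0. In 14 genes a6-high was lower within all 5 labels, as in 6.85% of all genes, and in 1 gene, Rpl8, the groups did not overlap, with a6-high lower, as in 0.901% of all genes. Rpl8 was named after its values were seen.

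The shift was not shared by all labels. The median over the 76 genes was -0.24 in KO 1, -0.35 in WT 2 and -0.20 in WT 3, but -0.01 in KO 2 and 0.21 in WT 1, the 2 labels whose a6-low library had Itga6 at the a6-high level. Without those 2 a6-low libraries the median was -0.16 with 72 genes lower and 0 called, where 342 genes were called in all. With library totals in place of TMM scaling 52 genes were lower and the median was -0.03. With the animal label as a block 0.41% of all genes passed and 0 of the 76 (median -0.12). The a6-low library of WT 2 holds the highest share of ribosomal protein counts, 4.77%, with the lowest depth, 10.1 M, and the most reads aligned to several places, 38.0%; their part in the difference was not tested. No gene passed the test of the a6 difference between genotypes, and 0 of the 76 had an unadjusted p under 0.05, against 1.15% of all genes. In simulated counts that test recovered 0% of 2-fold and 0% of 4-fold changes, so it cannot tell whether the genotypes share the difference.

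Of the lists, 27 of 34 translation factor genes were lower in a6-high cells (median log2 -0.13), with Eif1 at 787 ± 160 against 928 ± 124 CPM, while 26 of 40 ribosome biogenesis genes (median 0.05) and 59 of 76 mitochondrial ribosomal protein genes (median 0.08) were higher. Imp3, a nucleolar processing factor, was at 85.5 ± 8.50 against 64.6 ± 15.9 CPM, and Dkc1, the pseudouridine synthase, at 280 ± 26.6 against 225 ± 35.8 CPM (SD, n = 5 each). None of these lists had a gene that passed. Leukocyte markers moved alongside, with 7 of 8 tested lower in a6-high cells and sums of 46.0 to 345 against 155.5 to 1006 CPM. Endothelial, fibroblast and melanocyte markers were also lower, 4 of 4 tested in each list, with median log2 differences of -2.39, -1.76 and -2.49. With the animal label as a block 1 leukocyte marker, Lyz2, fell in a6-high cells. The part of such cells in the difference was not tested.

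Libraries labelled KO were compared with WT libraries in each population. No ribosomal protein gene passed in any of the 3 (edgeR, 0.00683% of all genes passed in each), and the smallest adjusted p was 0.652 in CD34-positive, 0.498 in a6-high CD34-negative and 0.865 in a6-low cells. Most genes were nevertheless lower in libraries labelled KO, 63, 65 and 70 of the 76 in these populations, against 48.9%, 46.4% and 46.5% of all tested genes. The median log2 difference was -0.20, -0.22 and -0.24, against 0.01, 0.05 and 0.04 over all genes. With an unadjusted p under 0.05, 8, 13 and 5 of the 76 were lower, against 3.19%, 4.31% and 1.82% of all genes, and 0 were higher. All libraries labelled KO lay below all WT libraries of the population in 29, 31 and 23 of the 76, against 13.2%, 13.7% and 6.38% of all genes, and above them in 2, 0 and 1, against 14.9%, 16.5% and 8.51%. Leukocyte markers were higher with the KO label in 6 of 8 tested in each population. The median of their sum was nevertheless 113.8 CPM with the KO label and 155.5 CPM in WT libraries. Endothelial markers were lower with the KO label in 4, 3 and 4 of 4 tested and fibroblast markers in 2, 4 and 3 of 4. The 5 melanocyte markers summed to 1.55 to 139 CPM (median 3.40) in libraries labelled KO and 0.669 to 6.56 CPM (median 1.73) in WT libraries. The 139 CPM was in a6-low cells, and sums reached at most 6.56 CPM in CD34-positive and 4.59 CPM in a6-high CD34-negative cells. Of 4 melanocyte markers tested, 1, 4 and 4 were higher with the KO label in the 3 populations. The part of such cells, like that of the greater depth of libraries labelled KO, was not tested. The 3 populations share animal labels and do not repeat each other independently. Of 2-fold changes in simulated counts the KO tests recovered 2% in CD34-positive, 4% in a6-high CD34-negative and 0% in a6-low cells. They would thus miss most changes of that size among all tested genes, and the rate for the 76 genes alone was not measured.

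Counts summed per animal label gave 2 KO against 3 WT sums with 15597 genes tested. Of the 76 genes 67 were lower, against 47.2% of all genes, with a median of -0.22 against 0.03, and 0 passed against 0.00641%. The smallest adjusted p was 0.461, and 17 genes were lower with an unadjusted p under 0.05, against 5.24% of all genes. Levels were also averaged per label, as the mean CPM of its 3 libraries. By these means both KO labels lay below all 3 WT labels in 43 genes, against 15.8% of all genes, and above in 1 gene, against 17.6%. CPM values given beside the sums below are such means per label, and log2 differences come from the summed counts. The large subunit had a median of -0.23 and the small subunit of -0.18.

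Rps15, a protein near the decoding site, was at 384 and 478 CPM in the CD34-positive libraries of KO 1 and KO 2, against 674, 601 and 816 CPM in WT 1, WT 2 and WT 3. In a6-high CD34-negative cells it was at 346 and 450 CPM, against 1024, 515 and 679 CPM, and in a6-low cells at 442 and 423 CPM, against 508, 958 and 858 CPM. The 6 libraries labelled KO lay below the 9 WT libraries, which ranged widely among themselves. Averaged per label, Rps15 was at 421 ± 42.2 CPM (SD, n = 2) in KO and 737 ± 46.3 CPM (SD, n = 3) in WT. Its log2 difference in the sums was -0.76 ± 0.17 (SE, edgeR adjusted p = 0.461). DESeq2 called Rps15 in the sums (log2 -0.78, adjusted p = 0.035), where it called 138 of all 15597 genes. It was the only such call among the 76 genes in any alternative run.

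Rpl5, of the 5S particle, was at 285 to 396 CPM in libraries labelled KO and 367 to 654 CPM in WT libraries. Averaged per label, Rpl5 was at 333 ± 30.2 and 523 ± 26.3 CPM, with log2 -0.62 ± 0.16 (SE) in the sums. Its partner Rpl11 differed by -0.20 ± 0.13 in the sums. Shared windows make up 93.8% of Rpl5.

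Rpl35 was at 266 ± 59.7 and 437 ± 17.2 CPM in KO and WT, averaged per label (log2 -0.65 in the sums). Rpl38 was at 156 ± 5.64 and 237 ± 17.8 CPM (log2 -0.57) and Rpl26, which can bind the p53 message, at 240 ± 12.8 and 361 ± 10.6 CPM (log2 -0.56). The adjusted p was 0.461 for each of these 3 in edgeR. Among the stalk genes Rplp0 had log2 -0.42 ± 0.17 (SE), Rplp1 -0.24 ± 0.14 and Rplp2 -0.25 ± 0.15. Rps6 had -0.28 ± 0.14 and Rps27l -0.48 ± 0.16. Differences near 0 were found in Rpsa (-0.03 ± 0.14), Rpl10 (0.00 ± 0.14), Rpl39 (-0.03 ± 0.15) and Rpl3 (-0.05 ± 0.15), with adjusted p from 0.913 to 0.998 in edgeR. A p of this size does not show that their levels were equal.

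Above 0 in the sums were Rpl37a (log2 0.21 ± 0.16 SE), Rps27 (0.15 ± 0.20) and Rps26 (0.12), and none passed. Rpl37a was at 441 to 541 CPM in libraries labelled KO and 309 to 509 CPM in WT libraries, which overlap. Rpl37a was the gene with the highest difference in each population, with 0.31, 0.27 and 0.18. Rps27 differed by 0.30 and 0.22 in the a6-high populations and by -0.00 in a6-low cells, and Rps29 and Rps25 by 0.19 and 0.11 in CD34-positive and a6-low cells.

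**Figure D5:**
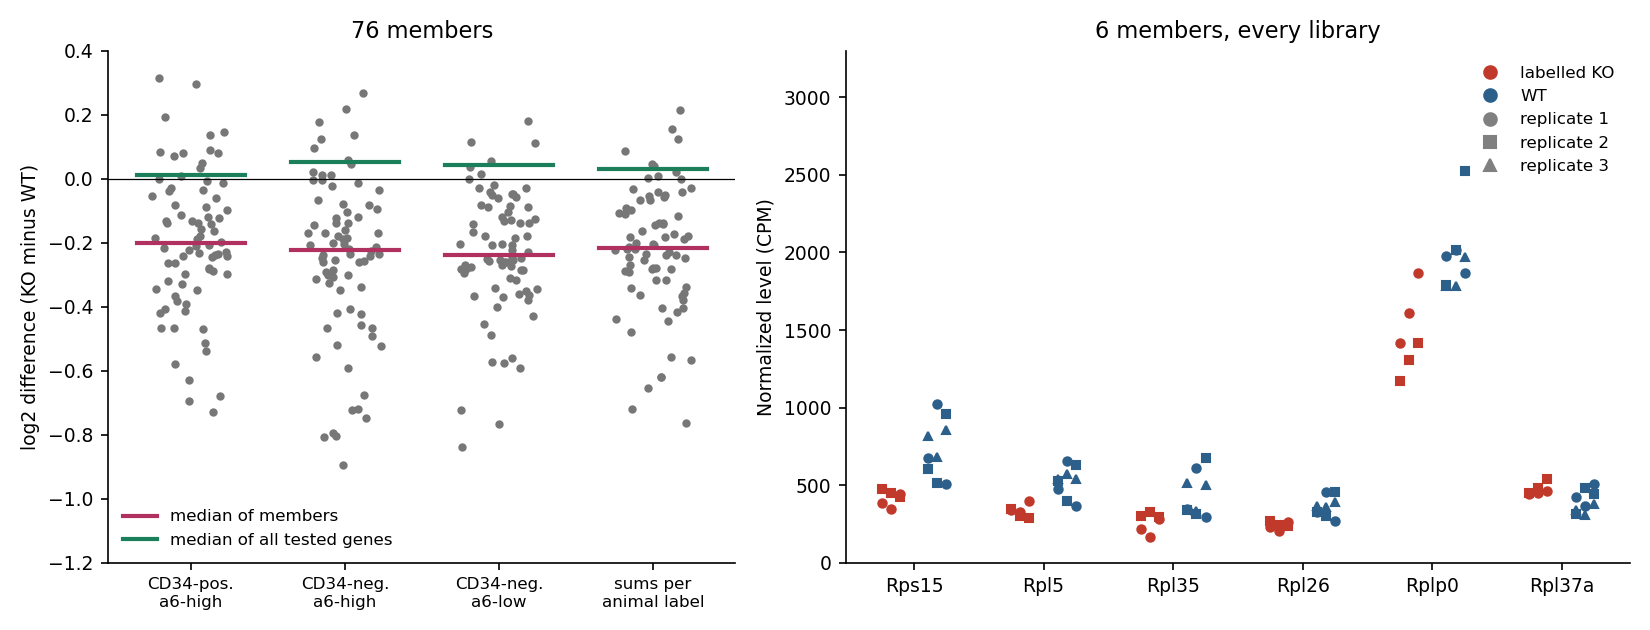
Left, log2 difference of the 76 genes, libraries labelled KO minus WT, in each population and in sums per animal label, with the median of the 76 genes (red) and of all tested genes (green). Right, levels (CPM) of 6 of the genes in every library, KO in red left of WT in blue; the medians of the 76 lie at -0.20 to -0.24 and Rps15 shows no overlap between the labels.

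The size of the shift depended on the scaling and on single libraries. Scaling factors were 0.962 to 1.15 in libraries labelled KO and 0.895 to 1.05 in WT libraries. With library totals alone the median of the 76 genes was -0.0057, -0.0067 and -0.18 in the 3 populations and -0.060 in the sums. The median of all genes then moved to 0.21, 0.26, 0.09 and 0.18, so the distance between the 2 medians stayed near its size in the main scaling. In CD34-positive cells the median was -0.065 without KO 1 and -0.11 without WT 1. In a6-high CD34-negative cells it was -0.13 without WT 1, -0.16 without KO 1 and -0.35 without KO 2, and in a6-low cells -0.12 without WT 2. It was below 0 with each library left out in turn. The libraries of KO 1 lay below the range of the other 12 in 7 genes, Rpl4, Rps4x and Rps6 among them, against 0.942% of all genes. Rpl4 was at 1550 to 1890 CPM in KO 1 and 1939 to 2865 CPM elsewhere. KO 2 stood above all others in Rps19 alone, with 1180 to 1423 against 595 to 1145 CPM, where 1.48% of all genes did so. WT 1 did so in Rpl7a, Rps10 and Rps28, against 0.43% of all genes. Rps10 was at 255 to 298 CPM in WT 1 and 178 to 215 CPM elsewhere. Genes outside the range of the other libraries were picked out with their values in view.

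Mitochondrial ribosomal protein genes, which serve a separate ribosome, were lower to a greater extent. Of 76 tested in the sums 72 were lower in libraries labelled KO with a median log2 difference of -0.40, and 31 had an unadjusted p under 0.05, against 10.6% of all genes. None passed. Mrpl28 was at 173 ± 13.95 CPM (SD, n = 2) against 300 ± 27.5 CPM (SD, n = 3), and Mrpl42 at 207 ± 2.74 against 362 ± 43.7 CPM. Of 40 ribosome biogenesis genes 23 were lower (median -0.06), with Nhp2, of the pseudouridylation particles, at 467 ± 31.1 against 804 ± 112 CPM and Nop16 at 191 ± 11.8 against 282 ± 30.1 CPM. Of 34 translation factor genes 19 were lower (median -0.15), with Eif5a at 3425 ± 240 against 5425 ± 524 CPM and Eif2s2 at 330 ± 25.1 against 532 ± 56.0 CPM. The median of 18 mTORC1 and TOP control genes was -0.07, with Eif4ebp1, which restrains cap-dependent translation, at 184 ± 8.08 against 260 ± 18.04 CPM. Of 11 p53 response genes 8 were higher (median 0.42), though Phlda3 was at 214 ± 10.9 against 324 ± 36.2 CPM. Myc averaged 356 ± 81.0 CPM (SD, n = 6) with the KO label and 354 ± 142 CPM (SD, n = 9) in WT libraries. No gene of these lists passed the edgeR test.

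Of 8 ribosomal protein genes or close relatives with other symbols 7 were lower in the KO sums, with a median of -0.39. The small subunit scaffold gene Rack1 was at 991 ± 64.7 against 1449 ± 112 CPM (log2 -0.52) and Rpl7l1, a paralog of Rpl7, at 218 ± 6.66 against 350 ± 38.3 CPM (log2 -0.67). The exception was Rps4l, by its name a relative of Rps4x, which lies on chromosome 6 and is classed as a pseudogene in the annotation. Rps4l was at 311 and 513 CPM in CD34-positive libraries labelled KO, against 12.1, 0.946 and 12.2 CPM in WT 1, WT 2 and WT 3. In a6-high CD34-negative cells it was at 287 and 500 CPM, against 3.53, 0.191 and 2.45 CPM, and in a6-low cells at 321 and 463 CPM, against 5.13, 0.666 and 3.91 CPM. The gap between the labels was wider than in any of the 76 genes, and WT 2 was lowest in each population. The log2 difference was 5.61, 7.63 and 6.85, with edgeR adjusted p of 0.234, 0.0934 and 0.12, and 6.41 in the sums (0.461). DESeq2 gave adjusted p of 0.00111, 2.24e-07, 7.48e-06 and 0.000118, and edgeR without the filter on low counts gave 3.13e-19, 1.43e-25, 2.63e-23 and 0.00106. Whether Rps4l is called thus depends on the tool and the filter. Rps4x differed by -0.17 to -0.18 in the 3 populations. Rplp0-ps1, by its symbol a pseudogene copy of Rplp0, reached 15.6 to 18.8 CPM with label KO 2 and lay between 0.145 and 1.02 CPM in the other 12 libraries. Of 113 symbols with -ps tested in the sums 84 were lower in libraries labelled KO, with a median of -0.20 close to that of the 76 genes.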

How the data were processed

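RNA of sorted skin tumour cells was turned into cDNA with a SMART-Seq v4 kit, which leaves strand unmarked. The authors deposited raw read counts per gene, as whole numbers that are not normalized. Per the submitters' processing notes the tools were HTSeq 0.6.0, STAR 2.3.0 and Picard 1.100 and the build was mm9. Their roles and the gene annotation are not given in the sources used here. Library sizes leave out the 5 entries at the end of each table, which are no genes. Reads outside genes made up 3.75% to 5.13% of records in KO and 2.61% to 4.47% in WT libraries. Symbols were matched by identifier for 87.4% of genes, and promoters come from RefSeq on GRCm38.p6, another build than the counts.

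The main test was the quasi-likelihood test of edgeR 4.0.16 (R 4.3.3, TMM factors, low counts filtered by group). All 15 libraries entered 1 fit, with Benjamini-Hochberg adjustment over 14652 genes and a threshold of 0.05. KO against WT was also tested in counts summed per genotype and replicate number. DESeq2 1.42.0, other scalings, filters, blocks and leaving out each library were the alternatives. The tests were tried on simulated counts. No library was a repeat of another (chi-square per degree of freedom between replicates 35.3 to 274). Whether a group holds separate animals is not labelled, and the p-values cover only the spread between these libraries, which may be technical. Depth is precise for these abundant genes, and intervals from so few libraries are wide.

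Whether same-numbered libraries pair was judged from how their deviations from group means correlate. The correlation was 0.104 to 0.530 for the CD34 pairs, taken as pairs from the data. It was -0.012 to 0.466 for the a6 pairs and -0.501 to 0.105 between KO and WT, which were not taken as pairs. With 2 KO libraries per population, KO 1 and KO 2 give the same value by construction, 0.530 for CD34 and 0.466 for a6. The main test did not use the pairs, which entered only with the animal label as a block.

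The genes and lists were chosen with earlier results of these data known. Genes were named by role, as the 3 highest and 3 lowest differences of each comparison, the 5 highest and lowest levels per kilobase, the 5 most and least variable, and the smallest p of each list. Some genes that these rules choose are not reported here.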

Additional observations from a re-analysis of the deposited data

Results flagged for a closer look

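In each population of 5 libraries the highest and lowest value of every ribosomal protein gene was set against the others by Dixon's test, which flags about 1 in 20 groups by chance. Of 228 such groups 15 stood out, and 0 of 9 groups of shares and of medians over the genes did. The a6-low library of WT 2 was the highest in 7 of them: Rpl7 at 802.4 CPM (others 652 to 691), Rpl19 at 555.7 (450 to 467), Rpl23a at 24.3 (16.0 to 17.3), Rpl36a at 183.2 (138 to 150), Rpl39 at 153.4 (110 to 120), Rps24 at 435.4 (299 to 329) and Rps29 at 336.4 (276 to 291). The CD34-positive library of KO 1 was the lowest in 3: Rpl32 at 779.1 CPM (others 974 to 1051), Rplp1 at 458.7 (578 to 622) and Rps23 at 377.6 (477 to 503). WT 1 was the highest in 3, with Rps10 at 298.4 CPM in CD34-positive cells (178 to 208), Rps3 at 1432 in a6-high CD34-negative cells (1073 to 1134) and Rpl7a at 373.3 in a6-low cells (322 to 335). Rpl39 was lowest in the CD34-positive library of WT 2, at 74.33 CPM (109 to 121), and Rpl8 in the a6-high CD34-negative library of WT 3, at 623.3 CPM (747 to 796).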

How the results depend on the processing

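Across the alternatives run, 132 of 133 counts of called genes stayed at 0. The exception was 1 gene, Rps15, in the KO sums with DESeq2, a run that called 138 of all 15597 genes. Of 133 medians 128 stayed within the spread between animal labels. With library totals in place of TMM scaling the median moved to -0.0057 for KO in CD34-positive cells, -0.0067 in a6-high CD34-negative cells and -0.060 in the KO sums. Without KO replicate 1 it was -0.065 for KO in CD34-positive cells, where leaving out single libraries gave -0.28 to -0.065, and 0.16 for the CD34 difference between genotypes, where the range was -0.069 to 0.16. Leaving out single libraries otherwise gave medians of -0.05 to 0.06 for CD34, -0.17 to -0.07 for a6, -0.35 to -0.13 and -0.30 to -0.12 for KO in a6-high CD34-negative and in a6-low cells and -0.26 to -0.16 in the sums. The share in CD34-positive libraries labelled KO was 3.66% of TMM-scaled size (3.95% of gene counts), and the median level per kilobase was 408 by longest transcript (234 by all exons).

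With the replicate block by animal label the medians were 0.00 for CD34 and -0.12 for a6, and with the replicate number as a block, which pairs nothing in the labels, -0.24, -0.27 and -0.27 for KO in the 3 populations and -0.24 in the sums, with 0 of the 76 genes called in each. The alternative without mitochondrial genome genes was not run, since these hold 0 counts. Only 2 KO labels limit every comparison of genotypes.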
